A study of Rattus norvegicus with 56 samples.

Results

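The comparison set lesioned rats that had received L-dopa alone against lesioned rats that had received pramipexole alone, 14 of the 56 rats of the series. Both groups of 7 male Sprague Dawley rats (Crl:OFA) carried the same lesion, a bilateral loss of nigral neurons made by AAV-driven overexpression of alpha-synuclein, so neither is an untreated or unlesioned group. Rats with L-dopa alone received L-dopa methyl ester at 50 mg/kg with benserazide, under the skin, daily for 3 weeks from 5 weeks after the lesion, and then saline in the place conditioning apparatus. Rats with pramipexole alone received saline for those 3 weeks and then 4 conditioning sessions of 40 min with pramipexole at 2 mg/kg. The other lesioned rats, 7 with both drugs and 7 with neither, entered the fit to estimate the spread. Sham rats had received the same vector carrying GFP, and gave the same pair of treatments in 12 rats whose arrays were comparable, 5 with L-dopa alone and 7 with pramipexole alone. The dorsal striatum was taken 24 or 48 h after the last dose; the labels used here do not tie either time to a rat, name the promoter of the vector, give the extent of the lesion per rat or say whether L-dopa went on during conditioning. Dose, length and timing thus differ between the drugs, and the comparison is between 2 regimens, not between 2 molecules at matched exposure. Each rat gave 1 array.

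L-dopa is the precursor from which the brain makes dopamine, so it can act at all dopamine receptors, and benserazide keeps it from being converted outside the brain. Pramipexole is an agonist that binds the D2 and D3 receptors directly. Most neurons of the dorsal striatum are spiny projection neurons of 2 classes: those of the direct pathway carry the D1 receptor and make dynorphin and substance P, and those of the indirect pathway carry the D2 receptor and make enkephalin. Loss of dopamine and its replacement are known to alter these peptides and the activity-regulated immediate early genes. The comparison asks whether striatal transcripts separate the 2 kinds of dopaminergic treatment in lesioned animals.

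The 14 arrays had median log2 signals between 5.69 and 5.77, and any 2 of them correlated across probe sets at 0.947 to 0.957. The median correlation was 0.954 among rats with L-dopa alone, 0.951 among rats with pramipexole alone and 0.952 between a rat of each group. The tissue carried the striatal markers: in rats with L-dopa alone and pramipexole alone the median log2 signal was 12.25 and 12.27 for Penk (enkephalin precursor), 10.77 and 10.83 for Drd1 (D1 receptor) and 10.20 and 10.27 for Ppp1r1b (DARPP-32, a phosphatase inhibitor of spiny neurons). The transcripts of dopamine neurons themselves, Th (tyrosine hydroxylase), Slc6a3 (dopamine transporter) and Slc18a2 (vesicular monoamine transporter), had means under the log2 signal of 5 that a probe set needed to be tested.

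No gene was called different between L-dopa alone and pramipexole alone. Of 18539 probe sets tested, 0 (0%) passed a Benjamini-Hochberg adjusted p of 0.05 in limma, and the smallest adjusted p was 0.944. At an unadjusted limma p under 0.05 there were 878 probe sets (4.74%), 431 higher with L-dopa alone (2.32%) and 447 lower (2.41%). The difference, L-dopa alone minus pramipexole alone on the log2 signal scale, was above 0 for 49.4% of probe sets and below 0 for 50.5%, and its median size without sign was 0.063. Only 56 probe sets differed by more than 0.5. The 2 beyond 1, named after their values were seen, were Pxmp4, a peroxisomal membrane protein (1.16, unadjusted p under 0.05, adjusted p = 0.987 in limma), and Ttr, transthyretin, described with the choroid plexus markers.

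**Figure D1:**
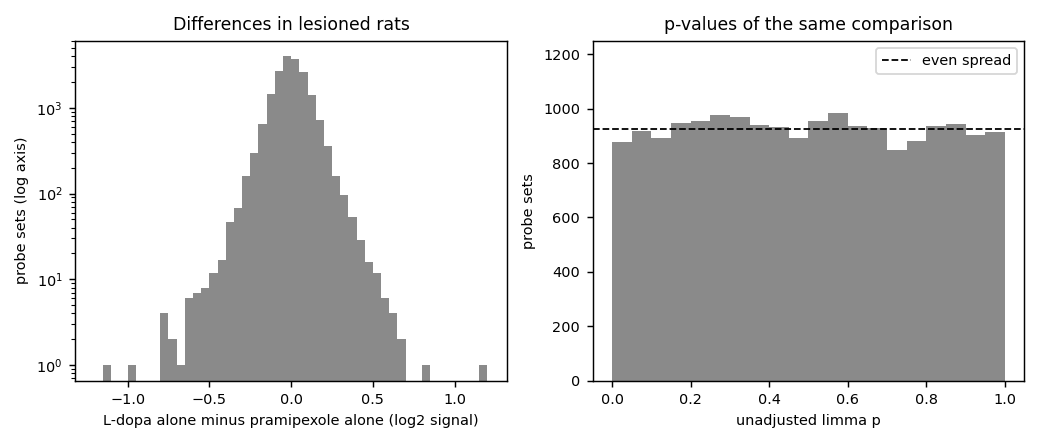
The left panel counts the 18539 tested probe sets by their log2 difference, L-dopa alone minus pramipexole alone in lesioned rats, on a logarithmic axis of counts; the right panel counts them by unadjusted limma p. The differences are centred near 0 with 56 probe sets beyond 0.5, and the first bar on the right, p under 0.05, holds 878 probe sets, just under the dashed line of an even spread.

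A p that misses the threshold does not show that the treatments act alike, so the intervals matter. The 95% interval of the difference had a median half-width of 0.189 on the log2 scale. It lay wholly between -1 and 1 for 18437 probe sets (99.4%) and between -0.5 and 0.5 for 16996 (91.7%). For those probe sets the data leave room only for differences smaller than these bounds, for each gene taken by itself.

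The 8 genes of smallest p in each direction are described next; they were picked for their p, all had an adjusted p of 0.944 in limma, and none passed the test. Among the 8 with higher signals under L-dopa alone, Cdkn1a, the cell cycle inhibitor p21, had a lowest, median and highest log2 signal of 5.74, 5.98 and 6.08 with L-dopa alone, against 5.09, 5.36 and 5.74 with pramipexole alone. All 7 rats with L-dopa alone lay above all 7 with pramipexole alone, by a small margin at the edge, and the difference was 0.51 ± 0.13 (SE). Mad2l1, a spindle checkpoint protein, had 5.09, 5.20 and 5.58 with L-dopa alone, against 4.42, 4.62 and 5.14 with pramipexole alone. These groups overlapped at the edge, and the difference was 0.48 ± 0.13 (SE); with means of 5.25 under L-dopa alone and 4.77 under pramipexole alone, Mad2l1 passed the floor of 5 only through the L-dopa group. Cdk10, a cyclin-dependent kinase, had 6.97, 7.13 and 7.36 with L-dopa alone, against 6.60, 6.69 and 6.95 with pramipexole alone, without overlap, and differed by 0.41 ± 0.12 (SE). Nasp, a histone chaperone, differed by 0.44 ± 0.12 (SE), with overlapping groups.

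Abhd17c, a hydrolase that removes palmitate from proteins, had 8.60, 8.77 and 8.82 with L-dopa alone, against 8.40, 8.47 and 8.56 with pramipexole alone. The groups did not overlap, and the difference was 0.24 ± 0.06 (SE). Numbl, an adaptor protein related to Numb, differed by 0.26 ± 0.07 (SE), without overlap. Col4a1, a collagen chain of basement membranes, differed by 0.32 ± 0.08 (SE), and Hecw2, a ubiquitin ligase, by 0.29 ± 0.08 (SE), both with overlapping groups.

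On the lower side, Sike1, a suppressor of the kinase IKK-epsilon in antiviral signalling, had the smallest p of the 16. Its lowest, median and highest log2 signal was 6.55, 6.66 and 6.78 with L-dopa alone, against 6.82, 6.89 and 7.04 with pramipexole alone. No rat with L-dopa alone reached the lowest rat with pramipexole alone, and the difference was -0.25 ± 0.05 (SE). Alg14, part of the enzyme that adds the second sugar of N-linked glycans, had 6.98, 7.09 and 7.18 with L-dopa alone, against 7.20, 7.27 and 7.42 with pramipexole alone. It too was without overlap, at -0.20 ± 0.05 (SE). The largest difference of the 16 was that of Thap11, a zinc finger transcription factor, at -0.76 ± 0.21 (SE), from 4.11, 4.68 and 6.11 with L-dopa alone, against 5.34, 5.78 and 5.96 with pramipexole alone. One rat with L-dopa alone lay above every rat with pramipexole alone. With a mean of 4.95 under L-dopa alone and 5.71 under pramipexole alone, this probe set passed the floor of 5 only through the pramipexole group; another probe set of Thap11, with means of 7.68 and 7.84 in that order, differed by -0.17 ± 0.10 (SE).

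The remaining genes of lower signal, all with overlapping groups, were Tpm2 (a tropomyosin, -0.53 ± 0.15), Slc3a1 (the heavy chain of a cystine and dibasic amino acid transporter, -0.50 ± 0.13), Nfyb (a subunit of the CCAAT-binding factor NF-Y, -0.29 ± 0.08), Eif3j (a translation initiation factor, -0.25 ± 0.07) and Hnrnpa2b1 (an RNA-binding protein of splicing, -0.25 ± 0.07; ± SE). In all, 6 of the 16 did not overlap between groups, beside 15 probe sets (0.0809%) among all those tested, 8 with L-dopa alone above (0.0432%) and 7 below (0.0378%); since the 16 were taken for their p, nothing is read from that share. Other tested probe sets were at hand for 8 of the 16 genes. Besides that of Thap11, those of Sike1 (-0.02 ± 0.07), Nfyb (-0.05 ± 0.05), Nasp (0.11 ± 0.10) and Hecw2 (0.05 ± 0.06, SE each) had the same sign and a smaller difference. That of Sike1 had a higher signal than the named probe set, with means of 7.71 under L-dopa alone and 7.73 under pramipexole alone. Both of Cdk10 (-0.10 and -0.15) and that of Eif3j (0.06) had the opposite sign, and the 3 of Hnrnpa2b1 were at 0.03, 0.006 and -0.0002. That of Eif3j (means of 9.10 with L-dopa alone and 9.04 with pramipexole alone) and the last of Hnrnpa2b1 (10.84 in both groups) had higher signals than the named probe sets. Both of Cdk10 had lower ones.

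**Figure D2:**
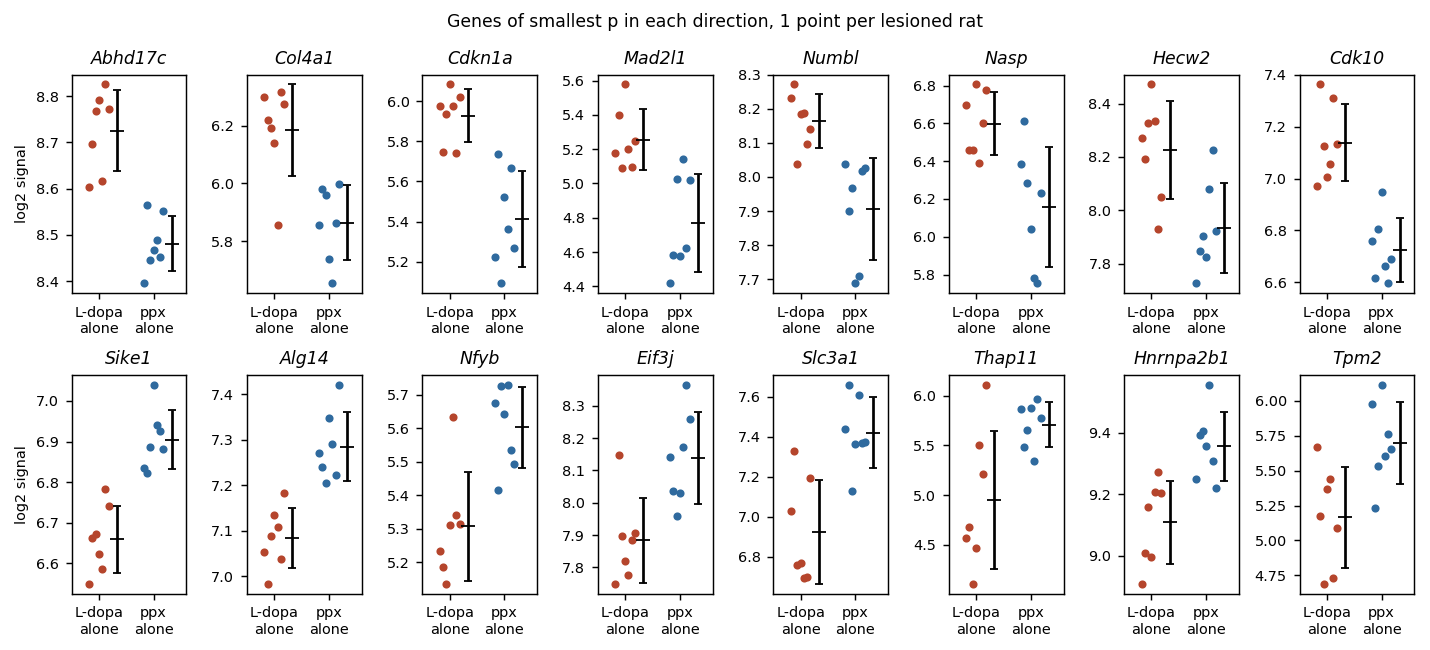
Each panel shows the log2 signal of 1 of the 16 genes of smallest p in each lesioned rat, L-dopa alone on the left (7 rats) and pramipexole alone on the right (7 rats), with bars for the mean ± SD. The point clouds are separate in 6 panels, Abhd17c, Cdkn1a, Numbl, Cdk10, Sike1 and Alg14, and overlap in the other 10.

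For 11 of the 16 genes, the means of lesioned rats with both drugs and with neither lay between those of L-dopa alone and pramipexole alone; the genes were picked for the difference between the outer groups, so nothing is read from this count. Cdkn1a averaged 5.93 with L-dopa alone, 5.41 with pramipexole alone, 5.72 with both drugs and 5.66 with neither. Sike1 averaged 6.66 with L-dopa alone, 6.90 with pramipexole alone, 6.77 with both drugs and 6.86 with neither. Thap11 averaged 4.95 with L-dopa alone, 5.71 with pramipexole alone, 5.58 with both drugs and 5.92 with neither, so its lowest group was L-dopa alone. These groups were not tested here.

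The transcripts that distinguish direct and indirect pathway neurons did not pass the test, and the intervals bound how far apart the treatments could be. In the direct pathway, Drd1 had 10.35, 10.77 and 11.03 with L-dopa alone, against 10.51, 10.83 and 11.06 with pramipexole alone. The groups overlapped, but L-dopa rats 8, 9 and 11 lay below the lowest pramipexole rat. The difference in Drd1 was -0.11 with a 95% interval of -0.37 to 0.15. Pdyn, the dynorphin precursor, had 9.07, 9.89 and 10.25 with L-dopa alone, against 9.69, 9.99 and 10.48 with pramipexole alone. Its difference was -0.27 (-0.59 to 0.05). Tac1, the substance P precursor, had 9.56, 9.97 and 10.55 with L-dopa alone, against 9.89, 10.32 and 10.59 with pramipexole alone, and differed by -0.27 (-0.63 to 0.08). For both peptides the lowest rats were those with L-dopa alone. The highest rats of the groups were close together for Tac1, at 10.55 and 10.59, and further apart for Pdyn, at 10.25 and 10.48.

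In the indirect pathway, Drd2, a receptor that both dopamine and pramipexole bind, had 9.15, 9.61 and 9.99 with L-dopa alone, against 9.36, 9.65 and 10.02 with pramipexole alone. Its difference was -0.04 (95% interval -0.33 to 0.25). It turned to 0.04 with the RNA quality measure described further on as a covariate and to 0.05 with the cortex marker score. Penk had 11.86, 12.25 and 12.31 with L-dopa alone, against 12.21, 12.27 and 12.48 with pramipexole alone, and differed by -0.12 (-0.29 to 0.05). Drd3, the other receptor of pramipexole, averaged 3.68 ± 0.24 with L-dopa alone and 3.87 ± 0.28 with pramipexole alone (SD, n = 7 each), and Th 4.12 ± 0.32 and 4.05 ± 0.37 (SD, n = 7 each); both were below the signal needed for testing.

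As lists, 8 of 9 direct pathway genes and 4 of 5 indirect pathway genes had a difference below 0, with medians of -0.19 and -0.12, and 0 of them had an unadjusted p under 0.05. The direct pathway list was uneven within the L-dopa group. Its mean level, centred on the 14 rats, was -0.30, -0.38 and -0.35 in L-dopa rats 8, 9 and 11 and between 0.00 and 0.20 in the other 4; with pramipexole alone it ran from -0.18 to 0.26 with a median of 0.10. The same 3 rats had the highest levels of the cerebral cortex markers in their group, 0.35, 0.46 and 0.29, and rats 8 and 9 the lowest of the ependyma markers, -0.77 and -0.86. With the cortex marker score as a covariate the direct pathway median was -0.11. Without L-dopa rat 9 the direct and indirect pathway medians were -0.10 and -0.07. In bulk tissue, fewer cells of a type and less RNA per cell cannot be told apart. Among 34 further genes of dopamine and cAMP signalling in spiny neurons, 25 were below 0 (median -0.06); Dclk3, a kinase enriched in the striatum, differed by -0.32 ± 0.12 (SE) and Prkaca, a catalytic subunit of protein kinase A, by 0.28 ± 0.13 (SE), both with an adjusted p of 0.987 in limma. With the cortex covariate that list split evenly, 17 above and 17 below 0.

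**Figure D3:**
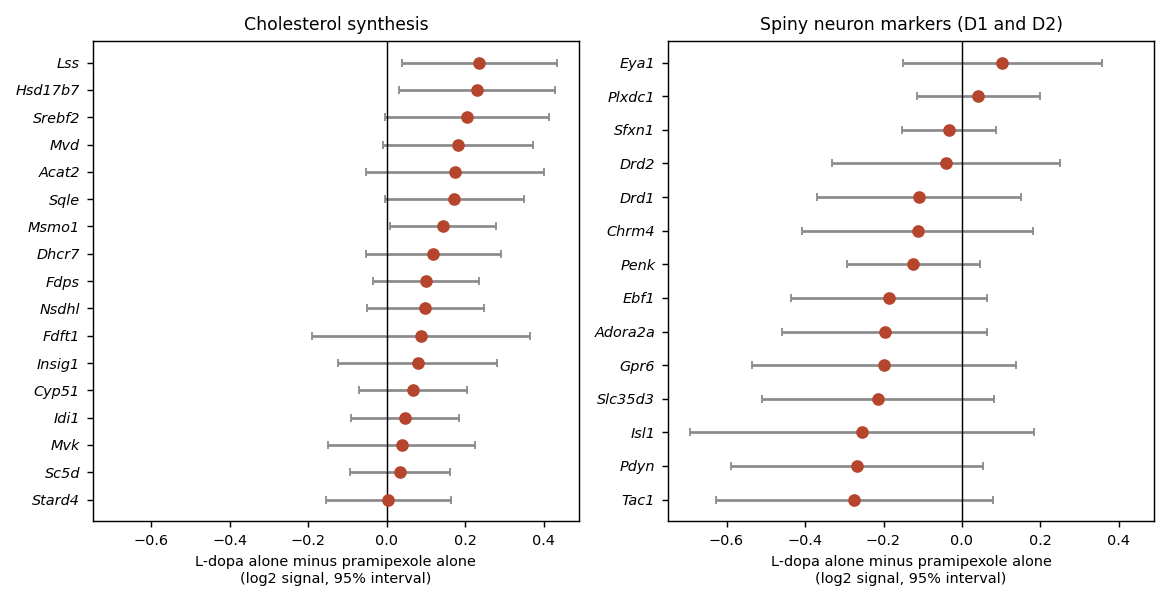
Points are log2 differences, L-dopa alone minus pramipexole alone in lesioned rats, and bars their 95% limma intervals, for the 17 cholesterol synthesis genes on the left and the 14 spiny neuron markers on the right. The cholesterol genes all sit right of 0, with 3 intervals clear of it, and 12 of the 14 spiny neuron markers sit left of 0 with every interval crossing it.

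The 28 lists, 17 of pathways and 11 of cell type markers, held 440 tested genes. Of these 0 were called, 27 (6.14%) had an unadjusted p under 0.05, beside 4.74% of all probe sets, and 44.1% had a difference above 0, beside 49.4%. Members of a list move together from rat to rat, so counts over a list are descriptions of these 14 rats.

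The genes of cholesterol synthesis leaned one way: all 17 tested were above 0, with a median of 0.10, beside 49.4% and a median of -0.0013 over all probe sets. Lss, lanosterol synthase, had 7.39, 7.55 and 7.99 with L-dopa alone, against 7.25, 7.45 and 7.76 with pramipexole alone, a difference of 0.24 ± 0.10 (SE). Hsd17b7, a reductase of the sterol pathway, had 6.33, 6.58 and 6.77 with L-dopa alone, against 6.19, 6.42 and 6.48 with pramipexole alone, a difference of 0.23 ± 0.10 (SE). Msmo1, a methylsterol oxidase, had 9.89, 9.97 and 10.15 with L-dopa alone, against 9.68, 9.85 and 9.89 with pramipexole alone, a difference of 0.14 ± 0.07 (SE). All 3 had an unadjusted limma p under 0.05, the only ones of the 17, beside 4.74% of all probe sets. Their adjusted p was 0.987 in limma, and for Msmo1 the groups met only at the edge. Srebf2, the transcription factor that turns this pathway on when sterols are scarce, differed by 0.20 ± 0.10 (SE), and Stard4, a sterol carrier, by 0.004 ± 0.08 (SE).

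The list's mean level was highest in L-dopa rats 9 and 8, at 0.29 and 0.14, and lay between -0.07 and 0.06 in the other 5; with pramipexole alone it ran from -0.16 to 0.05. The cerebral cortex markers, described with the other cell types, were also highest in rats 9 and 8 of the L-dopa group, at 0.46 and 0.35, and within that group both lists put the 7 rats in the same order. Pramipexole rats 21 and 19 were the lowest of their group for both, at -0.16 and -0.14 for cholesterol synthesis and -0.76 and -0.50 for the cortex markers. With the cortex marker score as a covariate all 17 were still above 0, with a median of 0.09. Without L-dopa rat 9, 14 of the 17 were above 0 and the median was 0.07. Against the 7 lesioned rats with neither drug, which both comparisons share, the list's median was 0.07 for L-dopa alone and -0.05 for pramipexole alone. In sham rats 11 of the 17 were above 0, beside 50.4% of all probe sets there, with a median of 0.03.

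The promoters of the 3 named sterol genes are given because the list's differences had one sign. A further reason was Nfyb, a subunit of the factor that binds the CCAAT box, among the genes of smallest p. That probe set of Nfyb averaged 5.31 with L-dopa alone and 5.60 with pramipexole alone. Another of higher signal, with means of 8.94 and 8.99 in that order, differed by only -0.05 ± 0.05 (SE). A link between Nfyb and the sterol genes was not tested. Each window runs from 250 bases before to 50 bases after the gene's start in the RefSeq table of GRCr8: Lss at chr20:12118181-12118480 on the minus strand, Hsd17b7 at chr13:84722705-84723004 on the minus strand and Msmo1 at chr16:29746863-29747162 on the plus strand. Sequences read 5′ to 3′ along the gene, and capitals mark CCAAT or its reverse ATTGG.
Lss: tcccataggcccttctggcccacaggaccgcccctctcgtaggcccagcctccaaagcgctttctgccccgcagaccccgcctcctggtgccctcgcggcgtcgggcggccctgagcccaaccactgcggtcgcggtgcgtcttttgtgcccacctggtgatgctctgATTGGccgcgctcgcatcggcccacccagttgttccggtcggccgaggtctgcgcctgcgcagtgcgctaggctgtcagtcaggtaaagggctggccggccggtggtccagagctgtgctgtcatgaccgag
Hsd17b7: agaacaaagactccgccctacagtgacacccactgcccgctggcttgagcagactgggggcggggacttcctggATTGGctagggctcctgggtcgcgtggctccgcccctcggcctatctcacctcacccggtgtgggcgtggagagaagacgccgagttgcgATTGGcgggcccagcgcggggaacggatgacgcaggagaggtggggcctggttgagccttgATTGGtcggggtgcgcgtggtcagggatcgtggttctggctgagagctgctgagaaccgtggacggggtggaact
Msmo1: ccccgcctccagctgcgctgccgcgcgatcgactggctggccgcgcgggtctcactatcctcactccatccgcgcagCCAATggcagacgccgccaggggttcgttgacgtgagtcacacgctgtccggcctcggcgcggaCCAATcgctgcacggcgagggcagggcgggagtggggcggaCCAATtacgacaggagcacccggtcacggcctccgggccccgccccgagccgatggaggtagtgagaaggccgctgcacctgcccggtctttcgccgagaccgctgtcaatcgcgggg
Lss holds 1 such match and the other two 3 each. CCAAT was found on either strand in 11 of the 14 cholesterol genes with a window (78.6%), against 37.7% of all 27457 promoters, in 16 of 51 oxidative phosphorylation genes (31.4%) and in 9 of 20 immediate early genes (45%). The sterol regulatory element, searched as TCACNCCAC on both strands, was in 0 of the 14 windows and in 1.13% of all promoters. It was also in 0 of the 51 oxidative phosphorylation and 0 of the 20 immediate early windows. At so low a share, 0 among 14 windows cannot show that such elements are absent from these genes. The cAMP response element TGACGTCA was in 4 of 20 immediate early genes (20%) and in 1.91% of all promoters. A match describes letters in these windows; binding was not measured.

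Oxidative phosphorylation genes leaned the other way by small amounts. Of 56 subunit genes of the respiratory chain and ATP synthase, 51 were below 0, beside 50.5% of all probe sets, with a median of -0.05. An unadjusted limma p under 0.05 was reached by 5 of the 56, beside 4.74% of all probe sets. Sdha, the flavoprotein of complex II, had 10.38, 10.46 and 10.52 with L-dopa alone, against 10.49, 10.57 and 10.66 with pramipexole alone. The groups overlapped only near 10.5, and the difference was -0.11 ± 0.04 (SE). In sham rats 32 of the 56 were below 0, beside 49.6% of all probe sets there, with a median of -0.01.

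Immediate early genes, which follow neuronal activity, showed no common direction. Of 25, 11 were above and 14 below 0 (median -0.04), and 0 had an unadjusted p under 0.05, beside 4.74%. Ier5 differed by 0.29 ± 0.17, Junb by -0.29 ± 0.18 and Arc, a synaptic cytoskeletal protein, by -0.28 ± 0.22 (SE each); Arc ran from 5.96 to 7.89 in rats with L-dopa alone. Fosb, whose product accumulates with repeated dopaminergic stimulation, differed by -0.12 with an interval of -0.42 to 0.19. Its signal was near the floor of 5, with means of 5.11 under L-dopa alone and 5.22 under pramipexole alone. The lowest rats were under that floor in both groups, at 4.84 and 4.67 in that order. Against lesioned rats with neither drug, the list's median was 0.13 for L-dopa alone and 0.17 for pramipexole alone, both over the same 7 rats. The 16 genes linked to L-dopa-induced dyskinesia split 8 and 8 (median -0.01).

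Genes of dopamine and monoamine metabolism, a list wider than the genes that handle L-dopa, split 7 above and 4 below 0. Of these 11, 2 had an unadjusted limma p under 0.05, in opposite directions, beside 4.74% of all probe sets. Slc7a5, the light chain of the large neutral amino acid transporter that carries L-dopa across the blood-brain barrier, had 6.91, 6.98 and 7.30 with L-dopa alone, against 6.72, 6.84 and 7.08 with pramipexole alone. The groups overlapped, and the difference was 0.19 ± 0.08 (SE; adjusted p = 0.987 in limma). Its heavy chain Slc3a2 differed by 0.08 ± 0.05 (SE). Sult1a1, a sulfotransferase of phenols, differed by -0.31 ± 0.13 (SE).

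Receptor and peptide genes gave single differences in both directions. Abat, the transaminase that breaks down GABA, had 6.27, 6.40 and 6.87 with L-dopa alone, against 6.38, 6.94 and 7.05 with pramipexole alone, a difference of -0.35 ± 0.10 (SE; adjusted p = 0.944 in limma). Its groups overlapped over much of their range. Gabbr1, a GABA-B receptor subunit, differed by 0.14 ± 0.06 (SE), and the 15 GABA genes split 7 above and 8 below 0. The postsynaptic scaffolds Shank3 and Shank2 differed in opposite directions, by -0.37 ± 0.14 and 0.20 ± 0.08 (SE each), and the 33 glutamate receptor and postsynaptic genes split 19 above and 14 below 0. Among 18 peptide and opioid receptor genes, 13 were above 0; Npy, neuropeptide Y of a class of interneurons, had 9.16, 9.31 and 9.41 with L-dopa alone, against 9.32, 9.47 and 9.59 with pramipexole alone, at -0.17 ± 0.06 (SE; unadjusted p under 0.05, adjusted p = 0.987 in limma).

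Other lists held few members past an unadjusted p of 0.05. Circadian clock genes were below 0 for 13 of 18 (median -0.07), with Cry1, a repressor of the clock, at -0.27 ± 0.11 and Nr1d2, a nuclear receptor of the clock, at -0.15 ± 0.07 (SE each); the hour of killing per rat was not used here. Interferon and antigen presentation genes had 11 of 17 below 0 (median -0.09) and glucocorticoid-responsive genes 13 of 17 (median -0.03), among which Cdkn1a was the highest. Of 28 chaperones and stress genes of misfolded protein 19 were below 0 (median -0.02), with Hyou1, a chaperone of the endoplasmic reticulum, at 0.30 ± 0.13 (SE).

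**Figure D4:**
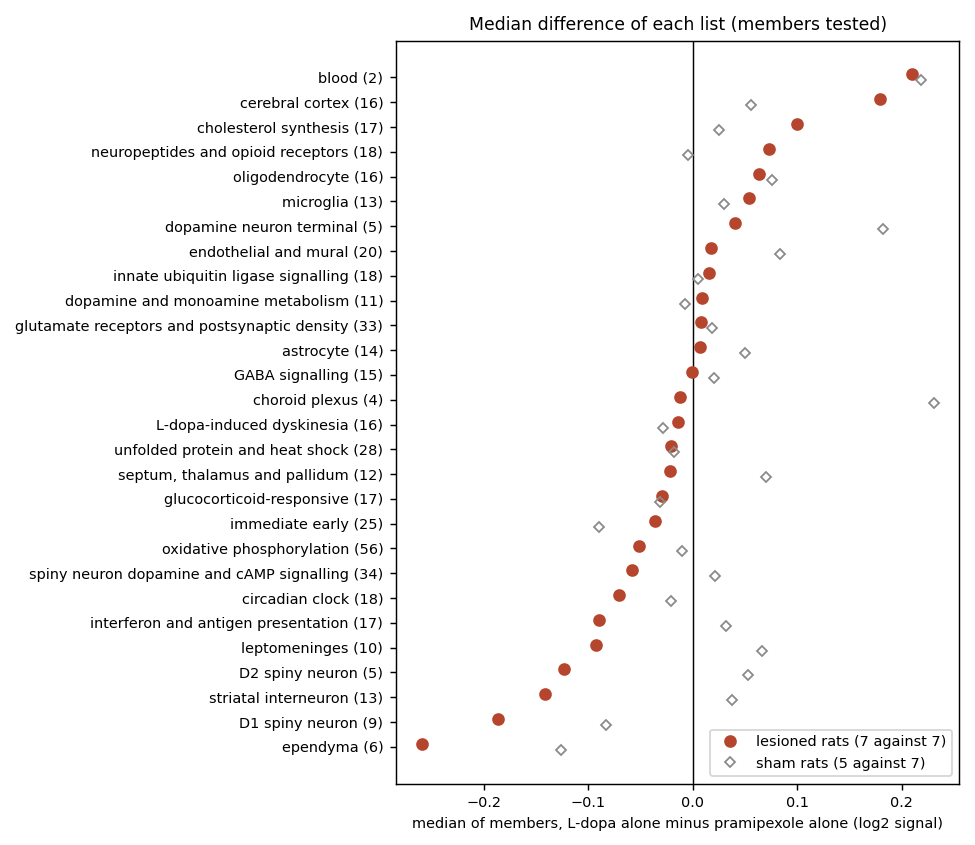
For each of the 28 lists, with the number of tested genes in parentheses, filled points give the median log2 difference, L-dopa alone minus pramipexole alone, in lesioned rats and open diamonds that in sham rats. Most medians lie within 0.1 of 0, and those of lists such as cerebral cortex (0.18 lesioned, 0.06 sham) and the indirect pathway (-0.12 lesioned, 0.05 sham) differ between the sets.

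Markers of other cell types differed between single rats within each group. Cerebral cortex markers were above 0 for 11 of 16 (median 0.18), with Neurod2, a transcription factor of cortical neurons, at 0.48 ± 0.26 and Slc17a7, the vesicular glutamate transporter 1, at 0.41 ± 0.32 (SE each). Their mean level ran from -0.27 to 0.46 with L-dopa alone and from -0.76 to 0.34 with pramipexole alone. The lowest were pramipexole rats 21 and 19, and the median was 0.03 without rat 21 and 0.10 without rat 19. It was 0.10 without L-dopa rat 9, 0.12 without L-dopa rat 11, and 0.29 and 0.28 without pramipexole rats 17 and 20. Tbr1 and Emx1 of that list were under the testing floor. Striatal interneuron markers were below 0 for 10 of 13 (median -0.14), beside 50.5% of all probe sets. At an unadjusted limma p under 0.05 were 3 of the 13, beside 4.74% of all probe sets. Among them were Chat, the acetylcholine-making enzyme, at -0.32 ± 0.14 (SE), and Npy, given above. The mean level of the interneuron markers ran from -0.21 to 0.02 with L-dopa alone and from -0.02 to 0.15 with pramipexole alone. In sham rats the list went the other way, with 8 of the 13 above 0 and a median of 0.04.

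Glial and vascular markers were near 0, with medians of 0.05 for microglia, 0.01 for astrocytes, 0.06 for oligodendrocytes and 0.02 for endothelial and mural cells. Ependyma markers were below 0 for 5 of 6 (median -0.26), with Cfap126 and Dynlrb2, both of cilia, at -0.37 ± 0.19 and -0.35 ± 0.22 (SE each); the median was -0.12 without L-dopa rat 8 and -0.10 without L-dopa rat 9. Leptomeninges markers were below 0 for 7 of 10 (median -0.09), beside 50.5% of all probe sets. An unadjusted limma p under 0.05 was reached by 2 of the 10, beside 4.74% of all probe sets. They were Crabp2, a retinoic acid-binding protein, at -0.37 ± 0.13, and Ogn, a matrix proteoglycan, at -0.58 ± 0.26 (SE each). Both had an adjusted p of 0.987 in limma. In sham rats Crabp2 was at -0.14 ± 0.11 and Ogn, the other way, at 0.42 ± 0.27 (SE each). There 6 of the 10 markers were above 0, with a median of 0.07. Gfap, the astrocyte filament, differed by 0.32 ± 0.20 (SE) in lesioned rats. Hbb, a beta globin of red cells, had 10.31, 10.91 and 11.08 with L-dopa alone, against 10.00, 10.39 and 10.92 with pramipexole alone, at 0.39 ± 0.18 (SE). Ttr of the choroid plexus ran from 4.28 to 5.37 with L-dopa alone and from 4.73 to 7.46 with pramipexole alone, and its difference of -1.12 had an interval of -2.82 to 0.59. With means of 4.92 under L-dopa alone and 6.04 under pramipexole alone, Ttr passed the floor of 5 only through the pramipexole group. The part of these cell types in the pathway differences was not tested beyond the cortex and choroid plexus covariates.

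**Figure D5:**
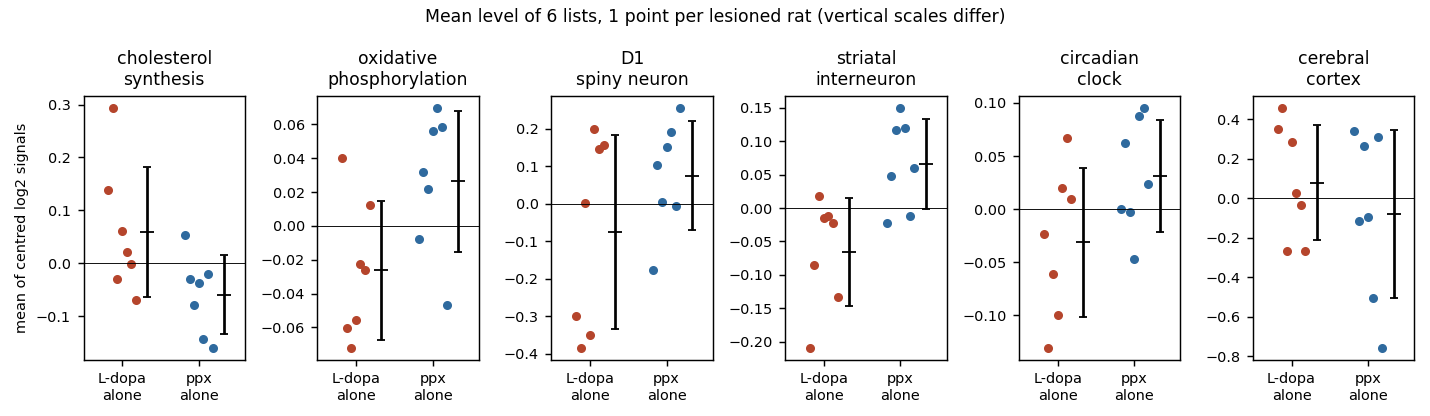
Each panel gives the mean of the centred log2 signals of 1 list in each lesioned rat, L-dopa alone on the left and pramipexole alone on the right (7 rats each), with bars for the mean ± SD and vertical scales that differ. All 6 lists overlap between the groups, and 3 L-dopa rats lie well below the others of their group for the direct pathway (D1) markers.

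RNA quality moved with the groups in 1 of its 3 control genes. The 3' minus 5' log2 signal, which grows as RNA is degraded or copied short, averaged 0.887 ± 0.096 with L-dopa alone and 0.803 ± 0.080 with pramipexole alone over the 3 control genes (SD, n = 7 each; difference 0.084, two-sided exact permutation p = 0.10). For beta-actin alone it averaged 2.06 ± 0.16 with L-dopa alone and 1.83 ± 0.11 with pramipexole alone (difference 0.232, exact permutation p = 0.0087, adjusted over the 3 genes 0.026). With the mean of the 3 genes as a covariate 0 probe sets were called in limma and 720 had an unadjusted p under 0.05; the circadian median then was -0.04, the ependyma median -0.11 against -0.26 without it, and 46 of 56 oxidative phosphorylation genes were below 0.

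The same pair of treatments in sham rats also gave 0 called probe sets in limma (smallest adjusted p 0.815), with 615 at an unadjusted p under 0.05 (3.32%). The sign was shared with the lesioned comparison by 54.1% of all probe sets and by 7 of the 16 genes above; the correlation of the differences across the 18539 probe sets was 0.091, as a description. Cdkn1a differed by 0.12 ± 0.13 in sham rats and Sike1 by -0.08 ± 0.13 (SE each), while Mad2l1 was at -0.27 ± 0.20 and Col4a1 at -0.25 ± 0.14, the reverse of their lesioned values. Genes with sham values close to the lesioned ones were Hbb (0.43 ± 0.14, against 0.39 ± 0.18 in lesioned rats), Hyou1 (0.31 ± 0.16, against 0.30 ± 0.13), Shank3 (-0.32 ± 0.17, against -0.37 ± 0.14) and Cry1 (-0.22 ± 0.15, against -0.27 ± 0.11; SE each), picked after their values were seen.

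Whether the lesion altered the difference between the treatments was tested directly, as the lesioned difference minus the sham difference over all 56 arrays with array set as a block. It was called for 0 probe sets (smallest adjusted p 0.999 in limma), and 568 had an unadjusted p under 0.05 (3.06%). No gene was thus shown to separate the 2 treatments, or to separate them differently in lesioned and sham rats. The lesioned difference rests on 7 rats a group, and the sham difference in this contrast on 5 rats with L-dopa alone and 7 with pramipexole alone, since the other 2 sham L-dopa rats only set the block.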

How the data were processed

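Total RNA (100 ng) of each rat's dorsal striatum was hybridized to 1 Affymetrix Rat230_2 array. Per the submitters' processing notes the authors made the signals with MAS5; its version and scaling target are not given in the sources used here. The deposited values are log2 signals: unlogged, each array's trimmed mean (2% off each end) lay between 150.042 and 150.046. They were used with no further normalization. Detection calls were not used here. Precision is limited by how many arrays there are. Labels name 1 rat per sample.

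Of 31099 probe sets, 57 are controls, and 18539 had a mean over the 14 arrays above 5 and were tested: 13550 carry 1 gene symbol, 309 several and 4680 none. limma 3.58.1 in R 4.3.3 (lmFit, eBayes, two-sided) was fitted to the 4 lesioned groups (28 arrays), with Benjamini-Hochberg adjustment over all tested probe sets. Sham rats were compared within sample numbers 38 to 56 (19 arrays, 3 groups), since arrays 1 to 37 and 38 to 56 differ, a position found from the values.

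Named genes are those called or, with under 5 called in a direction, the 8 of smallest p in it with 1 symbol, up to 3 of smallest p per list (each gene at its probe set of highest mean), and, always, Th, Fosb, Tac1, Pdyn, Penk and the dopamine receptors Drd1, Drd2 and Drd3. Of 607 list members 64 have no probe set with 1 symbol and 103 lay under the floor. Members and lists were chosen with earlier results of these data known. A list's level is the mean of its centred members. RNA quality used exact permutation tests over 3432 splits. Promoters are the first window per gene in RefSeq's GRCr8 table. Alternatives were other filters, fewer or more arrays, quantile normalization, a trended robust prior, array weights, 3 covariates, 16 added to the signal, and each rat left out. The pipeline was tested on simulated data.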

Additional observations from a re-analysis of the deposited data

Results flagged for a closer look

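Of 96 groups of 7 values checked for a rat far from the others, 5 stood out. The cut-off flags about 1 in 20 groups of independent normal values. Lists share genes and rats, and 16 of the genes were picked for their p, so nothing is read from the count. L-dopa rat 12 had the lowest Col4a1 of its group, 5.86, with the next rat at 6.14, and the highest Nfyb, 5.63, with the next at 5.34. L-dopa rat 9 had the highest Eif3j, 8.15, with the next at 7.91. L-dopa rat 8 had the highest level of the leptomeninges markers, 0.293, with the next at -0.017. Pramipexole rat 17 had the lowest level of the glucocorticoid-responsive genes, -0.198, with the next at 0.006.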

How the results depend on the processing

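The count of called probe sets was 0 in limma under each alternative run except the one without a filter on signal, which called 1 of 31042: an unnamed probe set with a mean log2 signal of 1.87 and a difference of -2.51 ± 0.35 (SE, adjusted p 0.0049), far under the floor of 5. Leaving out each rat in turn gave 0 calls each time, with 739 to 1081 probe sets at an unadjusted p under 0.05, and the smallest adjusted p of any named gene in any setting was 0.155. The 3' minus 5' difference was 0.232 for beta-actin alone and past the threshold, and -0.045, the reverse, for hexokinase alone. Drd2 turned to 0.039 with the 3' minus 5' covariate and to 0.053 with the cortex covariate, for a cause that was not tested. Folr1, a choroid plexus marker, turned to 0.11 with the choroid plexus covariate. That covariate is the mean of 4 tested markers that include Folr1, so nothing is read from this change of sign. Leaving out each rat in turn gave values of both signs for Drd2 from -0.11 to 0.036, Folr1 from -0.13 to 0.069, Lyz2 from -0.014 to 0.059 and Sncg from -0.57 to 0.14, all uncalled. No paired analysis was possible because rat numbers are not shared between groups. Without sample numbers 36 and 37 the array set could not be told apart from the sham groups and was dropped from that fit; the difference of differences then had 0 calls in limma and 562 probe sets at an unadjusted p under 0.05. The number of rats and the signal floor limit what could be detected.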

Other observations

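The probe set called without a filter carries no gene symbol. Its lowest, median and highest log2 signal was -0.15, 0.42 and 2.64 with L-dopa alone, against 2.35, 3.37 and 3.64 with pramipexole alone, and the lesioned means were 2.80 with both drugs and 2.68 with neither. In sham rats it averaged 1.86 with L-dopa alone and 2.96 with pramipexole alone. Detection calls were not used here, so whether the transcript was present was not tested.

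Adcyap1, the precursor of the peptide PACAP, had the largest difference of its list, 0.81 ± 0.62 (SE), with an unadjusted p of 0.202 in limma; it was picked after its values were seen.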
